A study of Caenorhabditis elegans with 2 samples.

Results

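The cytosolic ribosomal protein genes of Caenorhabditis elegans were taken as the protein-coding genes of the Ensembl annotation (assembly WBcel235, which is ce11) whose symbols begin with rpl, rps or rla. There were 81 of them among 19973 nuclear protein-coding genes: 47 rpl genes of the large subunit, 31 rps genes of the small subunit and 3 rla genes of the P stalk. The rule used names only and no measured value. RefSeq product names matched all 81 genes, and 2 of them did not carry a ribosomal protein name: rpl-24.2 is listed as the putative ribosome biogenesis protein RLP24, and rpl-42 as a NAM-associated domain-containing protein. Both were kept, because the symbol rule includes them.

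Binding of NHR-48, a nuclear hormone receptor, was mapped by chromatin immunoprecipitation with sequencing (ChIP-seq). The animals were whole L4 hermaphrodites of strain OP518, genotype unc-119(tm4063) III; wgIs518, collected 48.5 h after synchronisation from starved L1 larvae. The integrated transgene wgIs518 supplies NHR-48 whose C terminus carries GFP and FLAG, and precipitation was through GFP, so every value below is for the tagged protein in an animal that carries the transgene, and whole larvae give no information on the tissue. There were 2 biological replicates of 1 group, and no second condition or untagged strain was analysed here.

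A ribosome consists of a small subunit that reads the messenger RNA and a large subunit that joins amino acids, each built from ribosomal RNA and many small proteins, most of them needed in equal amounts. Transcription of the ribosomal protein genes is therefore coordinated in eukaryotes, and in growing larvae these genes are among the most highly transcribed. In C. elegans many of their messengers receive a spliced leader in trans, which replaces the original start of the transcript, and some genes lie inside operons, where one promoter serves a row of genes. Nuclear hormone receptors bind DNA through zinc fingers, and many nematode members of the family have no known ligand.

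The deposited regions were read by their summits, the base at which the authors placed the centre of each region. The irreproducible discovery rate (IDR) list was derived from both replicates and holds 3361 regions, 3338 of them nuclear. A list of both replicates pooled holds 30000 regions, peaks together with background, and the lists of replicates 1 and 2 hold 26941 and 22704. A gene was counted when a summit lay in its promoter window, the span of 1000 bp before and 200 bp after one of its annotated 5′ ends. The signal was set by the authors on a scale of the caller and is comparable only within a list. An IDR peak carries the signal of its pooled region. Each ribosomal protein peak of the IDR list had the same rank in the pooled list, down to rank 2978. To that depth the IDR list was the top of the pooled list by signal, with no region left out for its replicate ranks. The lists give no read counts, so depth was unknown. Intervals are exact 95% Clopper-Pearson intervals over genes or peaks, and they cover counting error only. Neighbouring genes that share a promoter are not independent counts.

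The DNA at the summits is shown first, because some of the ribosomal protein peaks shared short sequences there. Each line is the 100 bp window centred on the summit, on ce11, 5′ to 3′ on the strand of the gene. Capitals mark 4 short sequences on either strand, chosen after the values were seen and described further on. They are the 6-mer ACCGTA and the 6-mer ACACTC, with the 10-mer CTGAGTATTC and the 10-mer GAGTGTTACC; either 6-mer can overlap the last. The 8 windows of the first group belong to genes with an IDR peak, and among them are the 5 strongest ribosomal protein peaks. The peaks next by signal, at rps-19 (473) and rpl-12 (446), are not shown. Those of rpl-11.2 and rpl-7A, which each hold a 10-mer, are shown, so the group is not a ranked list. Of these 8 windows 5 hold both 6-mers, a larger part than the 11 of all 36 ribosomal protein peaks that do.
rpl-3, chrIII:3867526-3867625, plus strand: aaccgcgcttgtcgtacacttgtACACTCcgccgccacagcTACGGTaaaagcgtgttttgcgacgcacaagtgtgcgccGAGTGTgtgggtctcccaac
rpl-20, chrIV:4750015-4750114, minus strand: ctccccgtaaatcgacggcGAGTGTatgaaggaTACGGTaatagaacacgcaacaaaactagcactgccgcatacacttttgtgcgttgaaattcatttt
rpl-15, chrIV:654879-654978, minus strand: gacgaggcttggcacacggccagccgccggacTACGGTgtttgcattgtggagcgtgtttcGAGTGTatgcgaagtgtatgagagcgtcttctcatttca
rpl-35, chrIII:7854641-7854740, plus strand: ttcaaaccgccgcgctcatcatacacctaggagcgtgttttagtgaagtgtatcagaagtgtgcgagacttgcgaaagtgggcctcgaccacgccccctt
rps-1, chrIII:4475602-4475701, plus strand: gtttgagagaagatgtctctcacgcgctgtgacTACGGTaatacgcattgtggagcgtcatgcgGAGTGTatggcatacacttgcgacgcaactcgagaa
rpl-11.2, chrX:2242951-2243050, minus strand: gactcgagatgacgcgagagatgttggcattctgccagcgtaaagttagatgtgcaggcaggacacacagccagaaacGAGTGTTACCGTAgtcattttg
rpl-7A, chrIV:4390610-4390709, minus strand: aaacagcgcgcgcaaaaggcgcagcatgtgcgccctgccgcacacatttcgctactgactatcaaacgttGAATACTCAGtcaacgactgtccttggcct
rps-12, chrIII:5679086-5679185, plus strand: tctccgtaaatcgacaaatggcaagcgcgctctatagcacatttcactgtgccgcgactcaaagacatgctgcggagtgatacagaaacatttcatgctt

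The next 4 windows are centred on summits of pooled regions at ribosomal protein genes outside the IDR list. They are 3 of the strongest such regions and rps-22, which holds a 10-mer; rpl-28 holds none of the 4 sequences.
rps-13, chrIII:6375101-6375200, minus strand: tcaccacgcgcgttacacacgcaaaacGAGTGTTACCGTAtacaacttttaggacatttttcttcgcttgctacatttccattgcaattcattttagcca
rps-27, chrV:104671-104770, minus strand: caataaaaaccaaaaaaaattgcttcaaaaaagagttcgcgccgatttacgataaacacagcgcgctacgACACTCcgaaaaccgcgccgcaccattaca
rpl-28, chrV:12728402-12728501, minus strand: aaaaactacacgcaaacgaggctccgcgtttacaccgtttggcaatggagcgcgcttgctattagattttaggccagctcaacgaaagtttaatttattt
rps-22, chrIII:1950357-1950456, plus strand: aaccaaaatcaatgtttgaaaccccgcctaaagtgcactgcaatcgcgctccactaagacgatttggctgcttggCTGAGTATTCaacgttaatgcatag

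NHR-48-GFP bound near the start of many ribosomal protein genes. An IDR summit lay in the promoter window of 39 of the 81 genes (48.1%, interval 36.9 to 59.5), where 9.0% of all protein-coding genes had one. The remaining 42 genes were not free of signal: 34 of them held a pooled region below the IDR list, so that 73 of 81 genes (90.1%) had a pooled region, beside 39.5% of all genes. The pooled list includes background. The signals of those 34 regions lay below the end of the IDR list, as they must where that list is the top of the pooled list by signal. Each of the 39 genes with an IDR peak also had a region in the list of replicate 1 and in that of replicate 2. The IDR list was made from these replicates, whose lists include background, so this presence is no independent measure.

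The replicates gave like shares when each was read alone. Among the 3361 regions of highest signal in replicate 1, summits lay at 37 ribosomal protein genes (45.7%) and at 8.70% of all genes. The same number of regions from replicate 2 gave 34 ribosomal protein genes (42.0%) and 9.05% of all genes. Both of these lists held 31 of the genes, and all 31 had an IDR peak. With background regions included, 69 genes had a region in replicate 1 (85.2%, 37.6% of all genes) and 71 in replicate 2 (87.7%, 33.8% of all genes).

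The 39 genes shared 36 distinct peaks, because 3 pairs of ribosomal protein genes transcribed away from each other had 1 peak between them. Those pairs were rps-10 with rpl-24.1 (signal 184), rps-14 with rpl-36 (132) and rpl-39 with rps-30 (109); rps-30 encodes a small subunit protein made as a fusion to a ubiquitin-like protein. No gene had more than 1 IDR summit in its window. The annotation classed the summit base of 29 peaks as intergenic and of 5 as the exon of a noncoding gene. It classed 1 as an intron of another gene (the peak in the window of rpl-24.2) and 1 as a 5′ UTR (the peak in the window of rps-18).

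**Figure D1:**
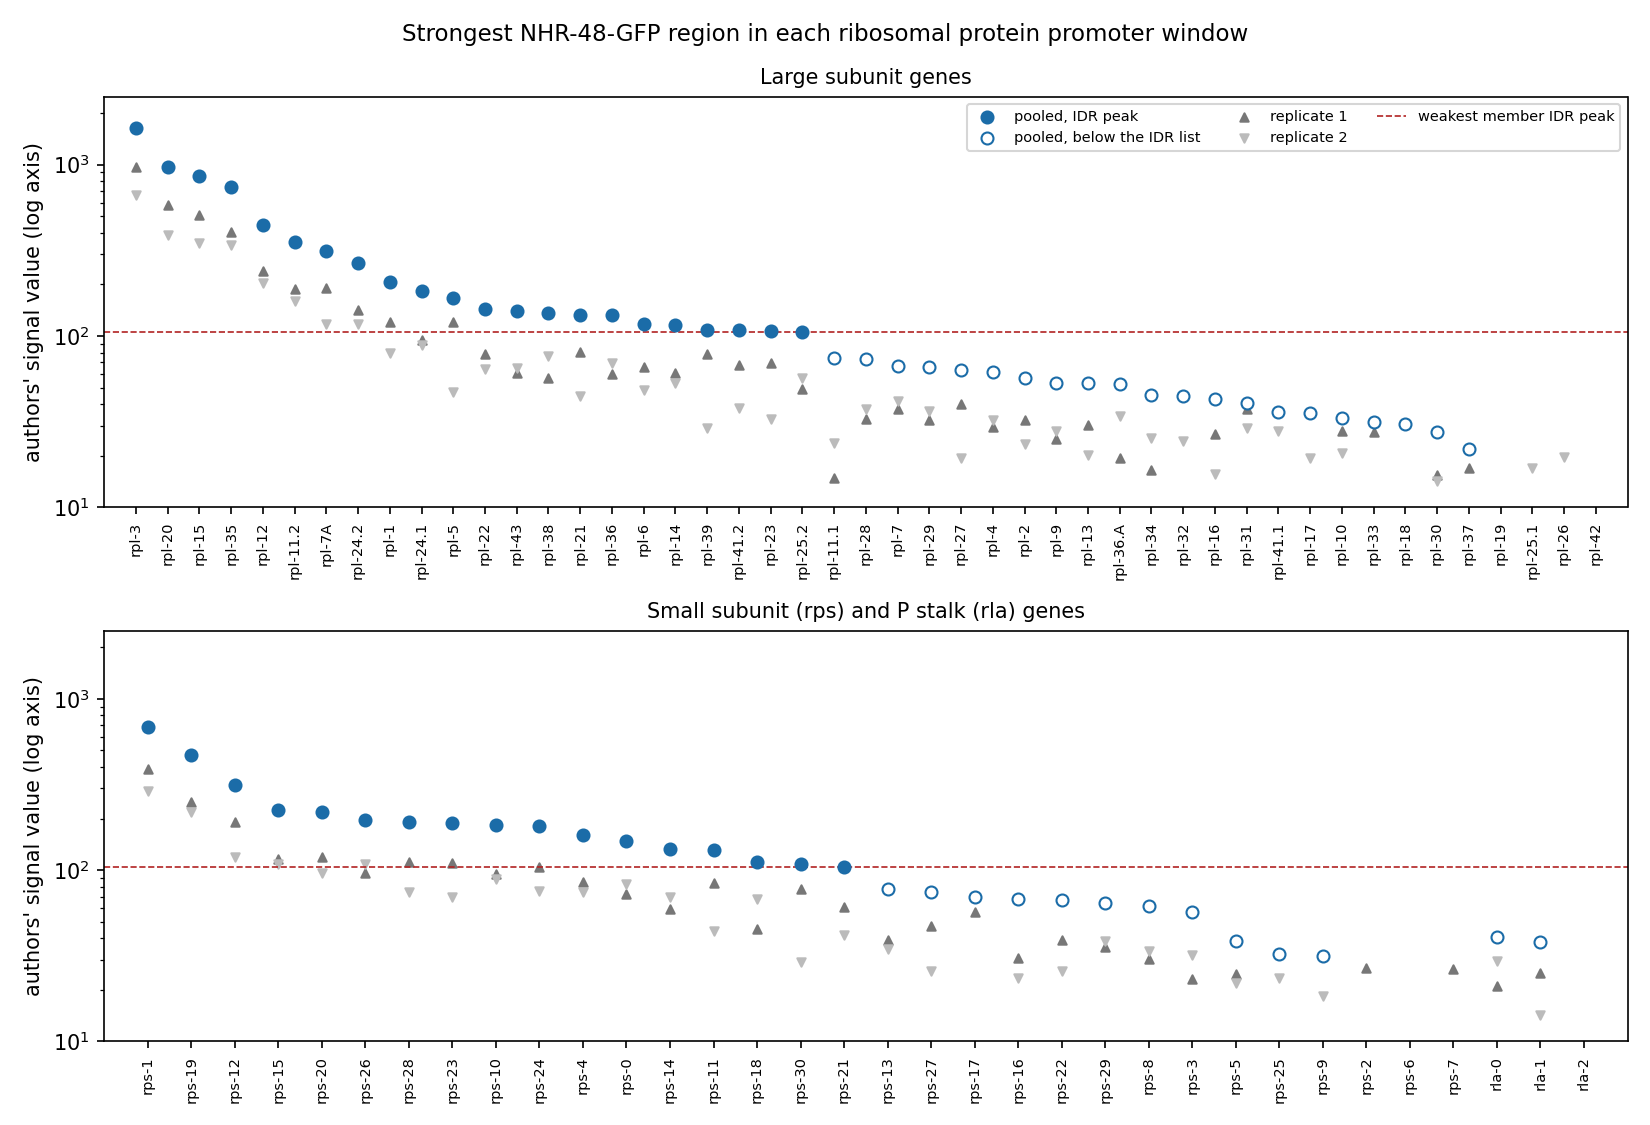
The authors' signal of the strongest region in the promoter window of each ribosomal protein gene, on a log axis, for the large subunit (top) and for the small subunit and P stalk (bottom). Filled circles are pooled regions in the IDR list, open circles pooled regions outside it, and triangles the same window in replicates 1 and 2, each on the scale of its own list; the weakest filled circle is rps-21 at 105, the strongest rpl-3 at 1631, and genes with no marker had no region.

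The strongest peak lay at rpl-3, whose protein lies near the site of peptide bond formation. The IDR list gave this peak a signal of 1631, replicate 1 gave 965 and replicate 2 gave 669. It ranked 30 in the IDR list, 27 in replicate 1 and 30 in replicate 2, and its summit lay 278 bp upstream of the 5′ end. The peak lay in no other protein-coding promoter window.

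The next peaks were at rpl-20, rpl-15 and rpl-35, all genes of the large subunit. The rpl-20 peak had a signal of 964 in the IDR list, 578 in replicate 1 and 391 in replicate 2. At rpl-15 the values were 864, 506 and 351 in the same order. The protein of rpl-35 lies beside the exit of the tunnel through which new peptides leave, and its peak had 742, 402 and 340. These genes ranked 78, 94 and 120 in the IDR list, and each kept a rank of at most 141 in either replicate. The rpl-20 summit also fell in the window of Y17G9B.5 and was nearer to the 5′ end of that gene. That of rpl-15 also fell in the window of K11H12.8 but was nearest to rpl-15. Neither peak can be assigned to 1 gene by position.

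Small subunit genes followed with rps-1 and rps-19. The rps-1 peak had a signal of 685 in the IDR list, 390 in replicate 1 and 291 in replicate 2. Values for rps-19, whose human counterpart is mutated in Diamond-Blackfan anaemia, were 473, 249 and 219. The rps-19 summit was 280 bp from its own 5′ end and nearer to that of hsr-9. At rps-12 the IDR peak had 314, and the replicates had 191 and 120. These peaks ranked 130, 238 and 536 in the IDR list. The rps-1 summit also fell in the window of ifet-1, and the rps-12 summit was nearer to the 5′ end of ska-3.

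Among large subunit genes of the next rank, rpl-12 encodes a protein at the base of the P stalk, where elongation factors dock. Its peak had a signal of 446 in the IDR list, 238 in replicate 1 and 203 in replicate 2, and the summit was 35 bp upstream of the 5′ end. The rpl-11.2 peak had 354, 189 and 161; its protein binds the 5S ribosomal RNA together with that of rpl-5, whose own peak had 166, 121 and 46.9. The rpl-5 peak ranked 1083 in replicate 1 and 3012 in replicate 2, and its summit, 682 bp upstream, was nearer to another gene. At rpl-7A the values were 314, 190 and 118. The rpl-12 summit also fell in the window of lin-54, and that of rpl-7A in the window of set-21.

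The list by signal continued with rpl-24.2 at 267, rps-15 at 224, rps-20 at 219, rpl-1 at 206 and rps-26 at 195. Of these only the rpl-24.2 peak lay in no other protein-coding window, and those of rps-20, rpl-1 and rps-26 were nearer to another gene. The 36 peaks ranked from 30 to 2978 among the 3361 regions of the IDR list. Of them 3 ranked among the 100 strongest regions (8.33%, beside 2.31% of nuclear IDR peaks), 8 among the 500 strongest (22.2%, beside 14.3%) and 13 among the 1000 strongest (36.1%, beside 29.3%). Their median signal was 183, that of the 3338 nuclear peaks 155 and that of the 1639 nuclear peaks with a summit in any promoter window 153.

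The replicates were compared at these peaks. The IDR list was made from both replicates, so the values that follow are no independent measure of agreement. Over the 36 peaks the signals of the replicates had a rank correlation of 0.79, as a description over peaks of the same pair of libraries. Summits of the replicates lay a median of 12 bp apart and at most 103 bp, and 24 of 36 lay within 20 bp. The peak of rpl-39 and rps-30 was the one of lowest rank in replicate 2, where it stood at 6478, while it stood at 2155 in replicate 1.

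At the lower limit of the IDR list, the weakest ribosomal protein peak was that of rps-21, with a signal of 105, 61.1 in replicate 1 and 42.0 in replicate 2. The IDR list itself ended at 95.4. The strongest region outside the list was at rps-13, with 77.1 in the pooled list, 39.2 in replicate 1 and 34.6 in replicate 2. It was followed by rps-27 at 74.3, rpl-11.1 at 73.9 and rpl-28 at 73.0. No ribosomal protein gene had a pooled region between 77.1 and the end of the IDR list.

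No region of any of the 4 lists lay in the window of rla-2, rpl-19, rpl-42 or rps-6. The last encodes a small subunit protein known as a target of phosphorylation downstream of TOR in animals. For rpl-25.1 and rpl-26 a region was listed in replicate 2 alone, and for rps-2 and rps-7 in replicate 1 alone, with signals from 17.0 to 26.9.

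The subunits did not separate. An IDR summit lay at 22 of 47 large subunit genes (46.8%, 32.1 to 61.9) and at 17 of 31 small subunit genes (54.8%, 36.0 to 72.7). The small subunit share was 8.03 percentage points above that of the large subunit, with a Newcombe interval of -14 to 28.9, so a difference in either direction lies within it. In the pooled list the same difference was -1.17 points and, with each peak given to its nearest gene only, -2.88 points, so its sign was not stable. Among genes with an IDR peak the signal ran from 106 to 1631 with a median of 155 for the large subunit, and from 105 to 685 with a median of 184 for the small subunit.

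None of the 3 P stalk genes had an IDR peak, which allows a share of up to 70.8%. These genes encode the acidic proteins that recruit elongation factors to the large subunit. The pooled region at rla-0 had a signal of 40.6, with 21.2 in replicate 1 and 29.3 in replicate 2, and its summit lay 301 bp upstream. At rla-1 the values were 37.9, 25.2 and 14.2, and rla-2 had no region.

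Among genes with numbered copies, 3 pairs had a peak at 1 copy. An IDR peak lay at rpl-11.2 and not at rpl-11.1, at rpl-25.2 (106) and not at rpl-25.1, and at rpl-41.2 (108) and not at rpl-41.1. The genes rpl-41.1 and rpl-41.2 lie in tandem, with 699 bp between them, and the pooled region at rpl-41.1 had a signal of 36.2. At rpl-11.1 the pooled summit lay 179 bp inside the gene, whereas that of rpl-11.2 lay 383 bp upstream. Both rpl-24.1 and rpl-24.2 had a peak, although RefSeq gives them different products. Copies by RefSeq name without a peak on either side were rpl-37 with W01D2.1 and rla-2 with C37A2.7. How reads that fit several copies were treated is not given in the sources used here.

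By chromosome, the ribosomal protein genes with an IDR peak numbered 11 of 18 on III (61.1%), beside 10.2% of all protein-coding genes there. On IV they numbered 10 of 18 (55.6%, beside 8.08%), and on I 11 of 25 (44.0%, beside 8.27%). On V they numbered 3 of 8 (37.5%, beside 8.11%), on II 3 of 10 (30.0%, beside 8.58%) and on X 1 of 2 (beside 11.9%). The intervals of the ribosomal protein genes overlapped on all chromosomes.

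**Figure D2:**
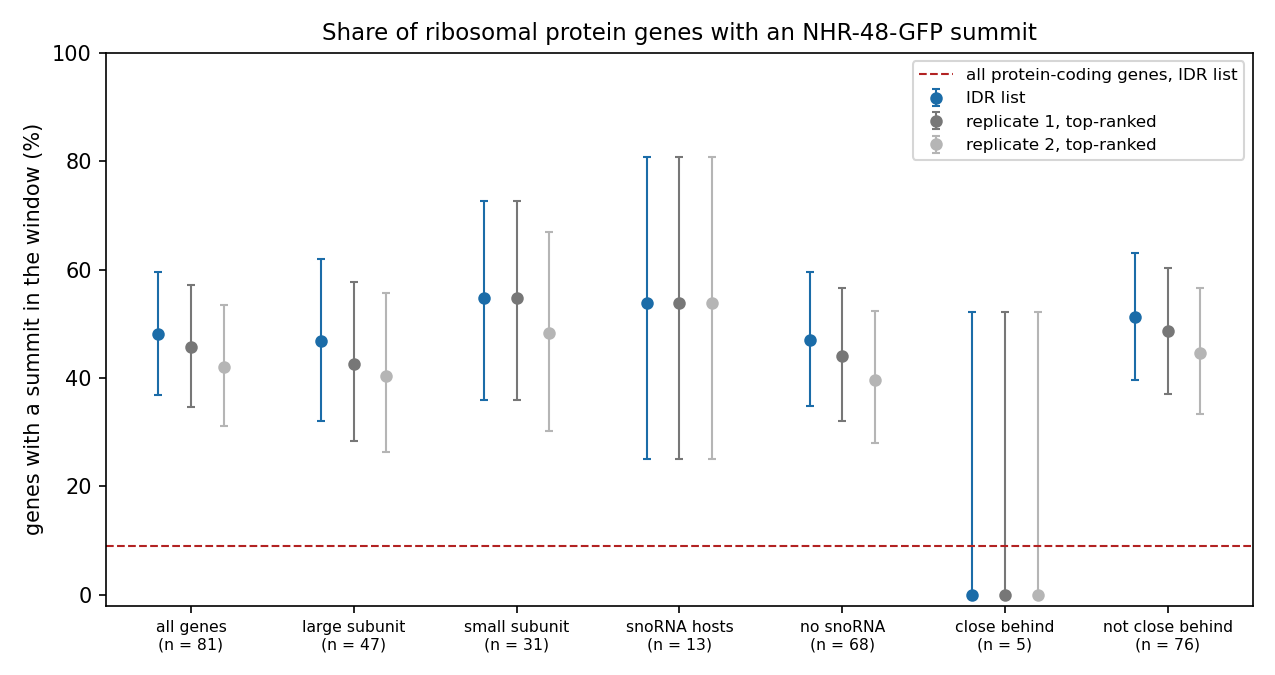
Percentage of ribosomal protein genes with a summit in the promoter window, with exact 95% intervals, for the IDR list and for the same number of top-ranked regions of each replicate. The dashed line is the share of all protein-coding genes in the IDR list (9.0%); the subunits and the snoRNA hosts overlap, and the 5 genes close behind another gene (at most 300 bp) stand at 0.

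Summits at ribosomal protein genes were gathered in a narrow span upstream. The summit lay a median of 301 bp upstream of the nearest annotated 5′ end of the gene, with quartiles at 358 and 260 bp upstream and a range from 779 to 35 bp upstream. None of the 39 summits lay at or past the 5′ end. For the 1759 other genes with an IDR peak the median was 259 bp upstream, the quartiles lay at 522 and 120 bp, and 122 summits lay at or past the 5′ end. Both quartiles of the ribosomal protein genes lay inside those of the other genes, as a description with no test.

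A band from 200 to 400 bp upstream, chosen after the values were seen, held 27 of the 39 ribosomal protein summits (69.2%) and 470 of the 1759 others (26.7%). Both subunits had the pattern, with 15 of 22 large subunit genes (68.2%, median 294 bp) and 12 of 17 small subunit genes (70.6%, median 301 bp) in the band. In the replicates the median of the 39 genes was 286 bp upstream in replicate 1 and 304 bp in replicate 2, each with 26 genes in the band.

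The 34 genes with a pooled region outside the IDR list had a like position. Their summits lay a median of 309 bp upstream, 19 of 34 (55.9%) in the band, while 20.7% of the 6054 other genes with such a region had a summit there. In 4 of the 34 the summit lay inside the gene, at rpl-11.1, rps-16, rpl-32 and rpl-16.

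Peaks near several genes were examined separately. Of the 39 genes, 27 shared their peak with the window of at least 1 other protein-coding gene, and for 12 of the 36 peaks another gene had the nearest 5′ end. Counted by nearest gene only, 24 ribosomal protein genes (29.6%) and 7.29% of all genes had a peak. The 24 genes had a median of 294 bp upstream with 17 in the band (70.8%), and the 12 genes whose peak lay in no other window a median of 317 bp with 9 in the band (75.0%).

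Annotated 5′ ends at these genes can be sites of trans-splicing rather than of transcription start. The bases AG, which end the acceptor at which a spliced leader is joined, stood directly before an annotated 5′ end at 75 of 81 ribosomal protein genes (92.6%) and at 36.1% of all protein-coding genes. The AG was read from the genome and is not proof of a spliced leader. Among the genes with such an AG, 14.2% of all and 36 of the 75 ribosomal protein genes (48.0%) had an IDR peak. The band held 27 of those 36 (75.0%) and 327 of 988 other genes with an AG (33.1%). The median summit of those other genes was 290 bp upstream, close to the 301 bp of ribosomal protein genes, and that of other genes without an AG was 192 bp, with 18.5% in the band. The part of the AG in the position was not tested.

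**Figure D3:**
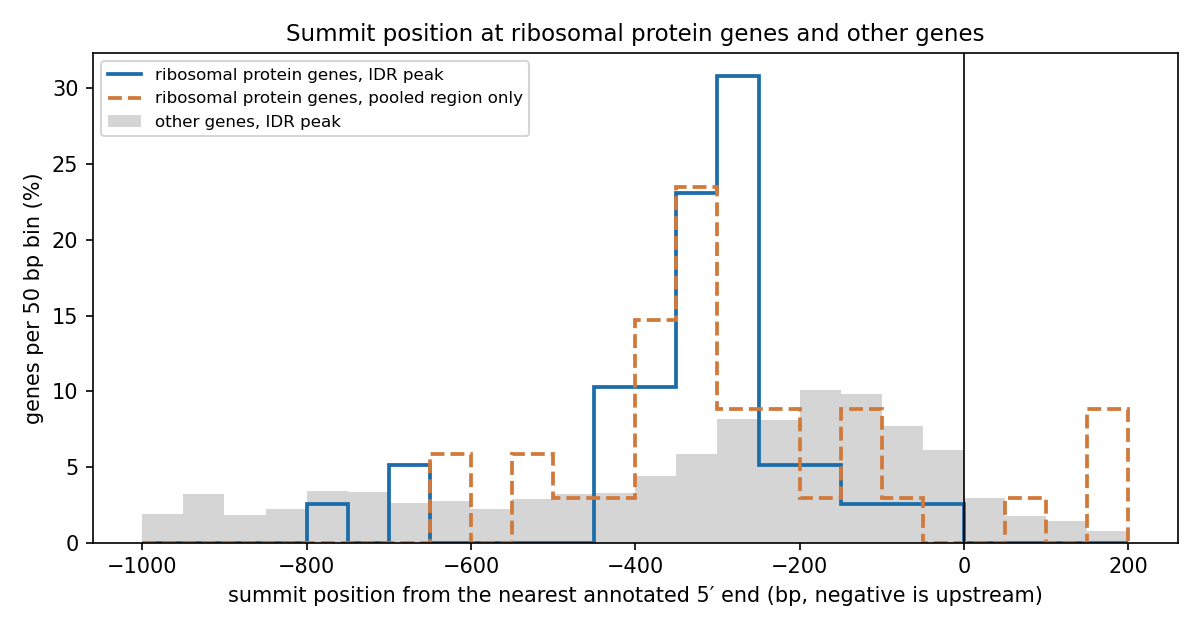
Position of the strongest summit relative to the nearest annotated 5′ end, in bins of 50 bp, as a percentage of genes. Ribosomal protein genes with an IDR peak (solid line, 39 genes) are highest from 250 to 350 bp upstream, those with a pooled region alone (dashed line, 34 genes) from 300 to 400 bp, and the other 1759 genes with an IDR peak (grey) are spread from 1000 bp upstream into the gene.

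Genes that could lie inside operons were found by distance, since operons themselves were not annotated in the reference used here. A ribosomal protein gene was called close behind when its outermost 5′ end lay at most 300 bp behind the 3′ end of a protein-coding gene on the same strand. There were 5 such genes, and none had an IDR peak (0 of 5, which allows up to 52.2%). Of the other 76 genes 39 had one (51.3%, 39.6 to 63.0). Over all protein-coding genes the shares were 5.18% close behind another gene and 9.66% elsewhere. With so few genes the difference among ribosomal protein genes was within the intervals.

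Each of these 5 genes has a leading neighbour. The gene rps-16 starts 109 bp behind fib-1, which encodes fibrillarin, the methyltransferase of box C/D snoRNPs, and the window of fib-1 had an IDR peak of signal 144 with its summit 81 bp upstream. That of glit-1, 97 bp ahead of rpl-25.1, had a peak of 179. The leading genes of rpl-16 (lias-1), rpl-27 (C53H9.2) and rla-1 (Y37E3.8) had pooled regions of 84.8, 57.1 and 44.0 and no IDR peak. At Y37E3.8, named rpl-27A by RefSeq, the neighbour is itself a ribosomal protein gene. The pooled regions of rps-16, rpl-27, rpl-16 and rla-1 had signals of 68.2, 63.0, 42.9 and 37.9. Ribosomal protein genes that are themselves followed closely by another gene on the same strand had an IDR peak in 18 of 34 cases (52.9%). That is near the 48.1% of all 81, and the share over all protein-coding genes so followed was not computed.

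Several ribosomal protein genes carry small nucleolar RNA genes in their introns, RNAs that guide the modification of ribosomal RNA. Here 13 genes held 19 intronic snoRNA genes, and 7 of the 13 had an IDR peak (53.8%, 25.1 to 80.8), beside 32 of the 68 without (47.1%, 34.8 to 59.6). A count of 7 of 13 was also found in the top regions of replicate 1 and of replicate 2. Among all 127 protein-coding genes that host a snoRNA, 28.3% had an IDR peak, the ribosomal protein hosts included. The hosts with a peak were rpl-15 (864), rpl-7A (314), rps-12 (314), rps-23 (189), rpl-24.1 (184), rps-4 (161) and rpl-6 (117). The summits of these genes lay a median of 293 bp upstream. Without a peak were rps-13, rpl-7, rps-29, rpl-4 and rpl-2, with pooled signals from 56.5 to 77.1, and rpl-26, with none.

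Preset sequences at the summits were searched on both strands in the 100 bp windows. They were a purine repeat, an E-box, a site of zinc finger factors of the gut, 3 sites of nuclear receptors and a splice acceptor. All 7 were less common at the 36 ribosomal protein summits than at all 3338 nuclear summits. The interval of each held its share at all summits, so a lower share is not shown for any of them. The purine repeat GAGAGA was in 5 of 36 windows (13.9%, beside 21.9%). The gut factor site TGATAA was in 4 (11.1%, beside 20.3%) and the E-box CACGTG in 1 (2.78%, beside 7.91%). Neither the receptor site AGGTCA (0 of 36, beside 3.45%) nor the receptor site AGTGCA (0 of 36, beside 6.14%) was found. A count of 0 of 36 allows up to 9.74%, which lies above the share of both at all summits. The receptor site AGTTCA was in 1 window (2.78%, beside 5.27%) and the acceptor TTTCAG in 2 (5.56%, beside 7.67%). In windows of 200 bp 6 of the 7 were less common at ribosomal protein summits, and in windows of 50 bp 5 were. The median GC content was 48.5% in the ribosomal protein windows and 44.0% in all. Flank windows, centred 300 bp to either side of the 36 summits, gave a mixed picture. GAGAGA was in 6.94% of the 72 flank windows and CACGTG in 0%, both below their shares at the summits. TTTCAG was in 27.8% of the flanks, TGATAA in 12.5%, AGTTCA in 5.56% and AGTGCA in 1.39%, all above their shares at the summits. AGGTCA was in neither.

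The pair of 6-mers with the largest difference in share, in percentage points, was then taken from the 1398 that occur at these summits, so the shares that follow chose the sequences and are given as a description. ACCGTA was in 14 of 36 windows (38.9%) and in 3.68% of the 1603 other promoter peaks. ACACTC was in 13 of 36 (36.1%) and in 8.30% of the others. As a ratio of shares the order differs: CGGTAA, in 22.2% and 2.0%, stands above ACCGTA, and CGCAGC, in 30.6% and 3.93%, above ACACTC. Either was in 16 of 36 windows (44.4%) and in 11.7% of the others, so that 20 of the 36 ribosomal protein windows held neither. Both occurred together in 11 windows (30.6%) and in 4 of the other 1603 (0.25%). Among the printed windows rpl-3, rpl-20, rpl-15 and rps-1, which include the highest signals, each hold both, and rpl-35, rpl-7A and rps-12 hold neither. In windows centred 300 bp to either side of the same 36 summits, ACCGTA was in 1 of 72 and ACACTC in 0 of 72. Where ACCGTA lay within 200 bp of a summit, at 19 peaks, the nearest copy was a median of 26 bp away, and for ACACTC, at 16 peaks, also 26 bp. Because the sequences were chosen at these summits, the choice itself favours low flank counts and short distances.

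The same 6-mers stood in promoters of ribosomal protein genes with and without a peak. In the 600 bp before the outermost 5′ end, ACCGTA was in 36 of 81 ribosomal protein promoters (44.4%) and in 16.2% of the other 19892. It was in 19 of 39 with an IDR peak (48.7%, 32.4 to 65.2) and in 17 of 42 without one (40.5%, 25.6 to 56.7). ACACTC was in 28 of 81 (34.6%), against 18.1% of others, with 46.2% (30.1 to 62.8) among genes with a peak and 23.8% (12.1 to 39.5) among those without. Intervals of genes with and without a peak overlapped for both sequences. The 6-mers were chosen at the summits of the genes with a peak. That choice raises the shares of those genes and of all 81, so the comparison is a description only. The 42 genes without a peak supplied no windows to the choice. Neither sequence was in the promoter of any of the 5 genes close behind another gene.

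In other genes, promoters with and without ACCGTA had like shares of peaks. Outside the ribosomal protein genes, 299 of 3221 genes with ACCGTA had an IDR peak (9.28%), and 1460 of 16671 without it (8.76%). For ACACTC these shares were 11.9% and 8.18%. The mitochondrial ribosomal protein genes had ACCGTA in 11 of 70 promoters (15.7%) and ACACTC in 13 (18.6%).

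**Figure D4:**
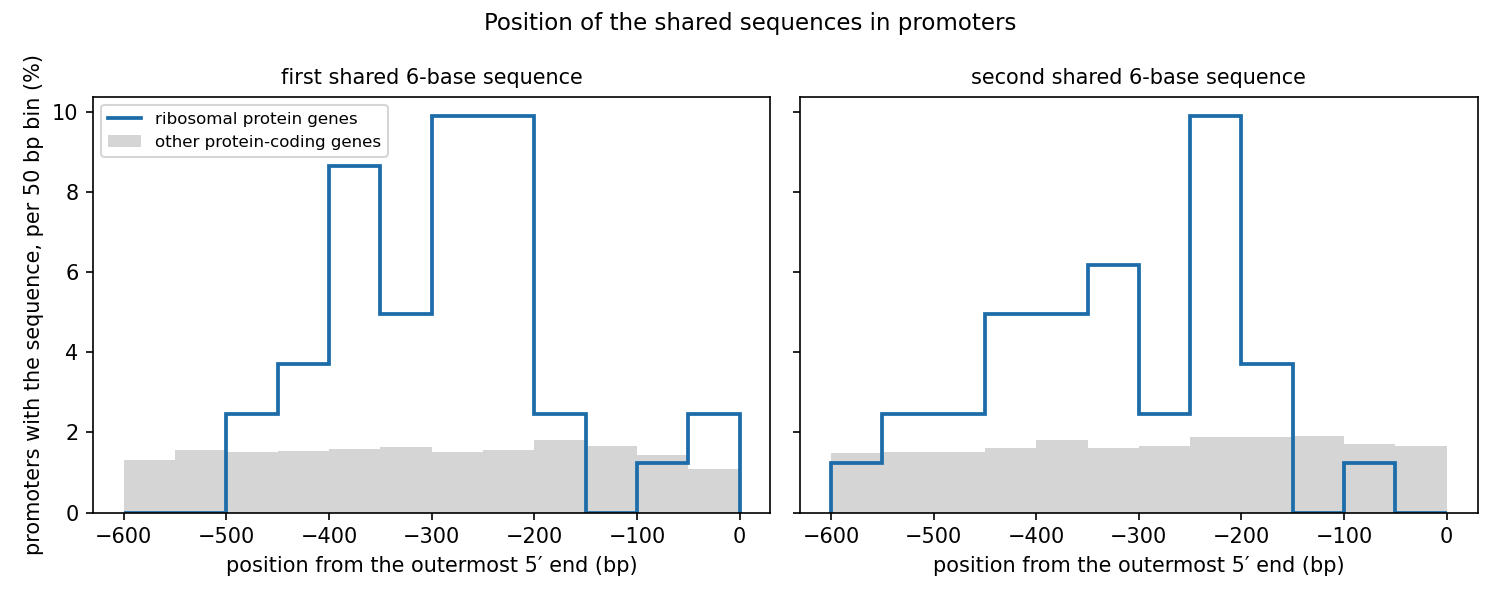
Percentage of promoters that hold ACCGTA (left, first sequence) or ACACTC (right, second sequence) in each bin of 50 bp before the outermost 5′ end, for the 81 ribosomal protein genes (line) and 19892 other protein-coding genes (grey). ACCGTA is highest from 200 to 300 bp upstream, with 8 genes in each bin (9.88%), and ACACTC from 200 to 250 bp, also with 8 genes; the grey bars are nearly flat.

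Longer sequences recurred in the promoters too. Among 10-mers present in at least 8 of the 81 promoters, the pair rarest in other promoters was taken, without use of the peaks but after other values were seen. CTGAGTATTC was in 10 ribosomal protein promoters (12.3%) and in 16 of 19892 others (0.0804%), and 5 of those 16 genes start within 1200 bp of one of the 10. GAGTGTTACC, which overlaps ACACTC and ACCGTA where it continues as GAGTGTTACCGTA, was in 8 (9.88%) and in 18 others (0.0905%), 5 of them within 1200 bp of one of the 8.

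CTGAGTATTC stood at rpl-6, rpl-7A, rpl-13, rpl-32, rpl-39, rps-0, rps-3, rps-20, rps-22 and rps-30, with rpl-39 and rps-30 sharing 1 copy from opposite sides. An IDR peak lay at 6 of these 10, and its summit was 19 to 51 bp from the middle of the sequence. GAGTGTTACC stood at rpl-1, rpl-11.2, rpl-21, rpl-24.1, rpl-34, rps-10, rps-13 and rps-23, of which 6 had an IDR peak with the summit 3 to 101 bp away, and rps-10 and rpl-24.1 shared 1 copy. Together 12 of 18 genes with either sequence and 27 of 63 with neither had an IDR peak. No gene had both. Outside the ribosomal protein genes and their neighbours, 1 of 11 promoters with CTGAGTATTC and 5 of 13 with GAGTGTTACC had an IDR peak. A match is a string of letters, and which protein binds it was not tested.

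Other genes of protein synthesis gave a measure of how far the pattern extends. Mitochondrial ribosomal protein genes had an IDR peak in 9 of 70 cases (12.9%, 6.05 to 23.0), an interval that holds the 9.0% of all genes and lies below that of the cytosolic genes. In the pooled list, which includes background, 47 of the 70 had a region (67.1%, beside 39.5% of all genes). The strongest were mrps-21 at 234, mrpl-12 at 188, mrpl-28 at 150 and mrps-31 at 125. Only 1 of the 9 mitochondrial ribosomal protein IDR summits lay in the band from 200 to 400 bp upstream. By nearest gene only 5 of the 70 genes had a peak (7.14%, beside 7.29% of all genes). In the 1680 strongest IDR peaks the count was 2 (2.86%, beside 4.61%). Translation factor genes had a peak in 9 of 31 cases (29.0%, 14.2 to 48.0), led by eef-2 at 638, eef-1G at 562, eif-3.C at 344 and eef-1A.2 at 317. By nearest gene only the translation factor share was 25.8% beside 29.6% of ribosomal protein genes, and in the 1680 strongest IDR peaks 25.8% beside 27.2%. In the pooled list 22 of the 31 translation factor genes had a region (71.0%). The band held 4 of the 9 translation factor summits (44.4%), beside 26.7% of the genes outside the ribosomal protein set with an IDR peak. The eef-2 summit lay 3 bp inside the gene and that of eef-1G 21 bp upstream.

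Genes for ribosome assembly had a peak in 8 of 36 cases (22.2%, 10.1 to 39.2), with larp-1 at 429, rpac-19 at 196, fib-1 at 144 and rpoa-1 at 136. The band from 200 to 400 bp upstream held 3 of these 8 summits (37.5%). The intervals of both the translation factor and the assembly genes overlapped that of the ribosomal protein genes, and no test of the difference was made. Of 6 ribosomal protein genes under other symbols, 3 taken from a list and 4 from RefSeq names with ubl-1 in both, 1 had a peak: ubq-2, which makes a ubiquitin fusion of the large subunit, had a signal of 96.0 with 58.9 in replicate 1 and 36.1 in replicate 2. The scaffold gene rack-1 had a pooled region of 67.7 and ubl-1 one of 34.0.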

How the data were processed

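ChIP-seq regions of 2 biological replicates were analysed as deposited, on ce11. Per the deposited file listings, each replicate list and the pooled list hold peaks and background called against 1 control file and were the input of the IDR procedure. The labels name a control experiment only as a possible one. For the aligner, the caller and the IDR cutoff, name and version are not given in the sources used here. Regions are ranked within a list by the authors' signal value. The ce10 lists were not used here. The count of nuclear regions beyond a chromosome end of the reference was 0.

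Gene models were those of Ensembl release 115, and product names and sequence those of RefSeq for the same assembly. For each gene the strongest summit in the window was used, at the distance to the nearest annotated 5′ end. Groups of genes were compared by counts with intervals, and no p-value was computed, because there was 1 group and genes are not replicates. Named genes were the 15 ribosomal protein genes of highest signal, all rla genes, up to 6 of each subgroup, genes with no region, rack-1, ubl-1, ubq-2 and up to 4 of each other list, and further genes were named after their values were seen. Members and lists were chosen with earlier results of these data known. Of 41 ribosome assembly genes listed, 36 matched the annotation. Alternatives varied the window, the list, the replicate, the gap and the assignment of peaks. Window assignment was tested on simulated summits. The tools were Python 3.11.15, scipy 1.17.1, pandas 2.3.3, matplotlib 3.10.9 and numpy 2.4.6.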

Additional observations from a re-analysis of the deposited data

How the results depend on the processing

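The count of 39 ribosomal protein genes stayed between 36 and 40 with narrower or wider windows, the outermost 5′ end only, or any overlap with the window. These counts are 44.4% to 49.4%, beside 6.67% to 12.3% of all genes. The count was 22 in the 1680 strongest IDR peaks (27.2%, beside 4.61% of all genes) and 73 in the pooled list (90.1%, beside 39.5%). By nearest gene only it was 24 (29.6%, beside 7.29%). With one replicate at a time it was 37 in replicate 1 (45.7%, beside 8.7%) and 34 in replicate 2 (42.0%, beside 9.05%). The excess of the small over the large subunit ran from 7.96 to 12.3 points with 1 replicate and turned to -1.17 points in the pooled list and -2.88 by nearest gene. Close-behind genes with a peak numbered 1 of 5 in the window from 2000 bp upstream to 500 bp downstream (beside 12.3% of all genes). In the pooled list they numbered 4 of 5 (beside 39.5%). With either replicate alone the count was 0 of 5. It was also 0 of 5 with a gap of 150 bp. With a gap of 1000 bp 26 genes qualify, and 12 of them had a peak (46.2%), near the 48.1% of all 81. The absence of peaks at close-behind genes thus depended on the chosen gap. The share over all genes at that wider gap was not computed. The snoRNA hosts with a region numbered 12 of 13 in the pooled list (92.3%, beside 39.5% of all genes). With either replicate alone they numbered 7 of 13 (53.8%), beside 8.7% of all genes in replicate 1 and 9.05% in replicate 2. Assembly genes numbered 2 in the strongest IDR peaks (5.56%, beside 4.61% of all genes), 23 in the pooled list (63.9%, beside 39.5%) and 7 to 8 with 1 replicate. The median summit position was -286 bp without replicate 2 and -304 bp without replicate 1. The pooled list holds background, the stricter list fewer regions. With depth unknown, a gene outside the IDR list is not shown to be unbound. No paired analysis was possible because there was 1 group.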

Other observations

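RefSeq gives ribosomal protein symbols to 4 genes outside the rpl, rps and rla symbols of Ensembl, and none had an IDR peak, while all 4 had a pooled region. W01D2.1, named rpl-37.1, had a pooled signal of 57.4 with 20.2 in replicate 1 and 32.5 in replicate 2. C37A2.7, named rplp-2.1, a P stalk gene, had 52.7 in the pooled list and 43.0 in replicate 1. Y37E3.8 had 44.0, 25.2 and 24.3, and ubl-1, named rps-27A, had 34.0 in the pooled list and 17.9 in replicate 2. With C37A2.7 counted, no P stalk gene of either annotation had an IDR peak.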
